A study of Mus musculus with 4 samples.

Results

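The mammalian spliceosome genes followed here are those of 4 symbol families: SRSF, the serine/arginine-rich splicing factors; HNRNP, the heterogeneous nuclear ribonucleoproteins; SF3A and SF3B, the subunits of splicing factor 3; and SNRP, the proteins of the small nuclear ribonucleoprotein particles (snRNPs). Of 55339 gene rows in the deposited expression table, 53 carried a symbol of these families, and 51 of those had a log2 value of at least 0 in 2 or more libraries and count as members. They comprise 11 SRSF, 20 HNRNP, 9 SF3 and 11 SNRP genes. Srsf12 met the rule by being listed at 0 in all 4 libraries, so 50 members carried a measured value and were tested. Just outside the threshold lay Snrpert, at -0.63 to -0.23, and Snrpn, at -1.52 to -1.39. Srsf12 is the member just inside it, and the measured member with the lowest median is Srsf4, at 4.97 to 5.98. The rows were chosen by name and level, not by their difference between groups.

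The libraries come from leukemia cells of the bone marrow of C57BL/6 mice. A first group of 2 libraries has the genotype WT (replicates 4 and 5), and the other 2 have the genotype YBX1-/- and are titled cKO (replicates 1 and 3), called knockout below. The titles of WT replicates 4 and 5 and knockout replicate 1 carry the RNA-seq number 1, and that of knockout replicate 3 carries the number 2. The labels do not give the oncogene that drove the leukemia, the Cre or the cell type in which Ybx1 was deleted, the age of the mice, or whether replicates are separate animals, so p-values measure a spread that may be technical. The series title names myeloid leukemia and places YBX1 in the control of mRNA stability through m6A. All values are the deposited normalized log2 expression values. The files hold no counts, so the depth is unknown.

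As background, introns are removed by the spliceosome, which is built from snRNPs. A ring of Sm proteins (the products of Snrpb, Snrpd1, Snrpd2, Snrpd3, Snrpe, Snrpf and Snrpg) holds the snRNA of the U1, U2, U4 and U5 particles, U1 recognises the start of the intron, and U2 with SF3A and SF3B binds the branch point near its end. SR proteins bind exons through RNA recognition motifs and recruit the machinery with their arginine/serine-rich tails, while many HNRNP proteins coat the transcript and repress nearby sites. Mutations of SF3B1 and SRSF2 are recurrent in human myeloid neoplasms, and YBX1 is itself an mRNA-binding protein found in spliceosome preparations.

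To show the regulatory sequence around members with wide differences from WT replicate 5, the 250 bases before the RefSeq start of Srsf9, Hnrnpu and Hnrnpul1 are printed 5′ to 3′ in the direction of the gene (RefSeq table, GRCm38.p6). None of the 3 stretches overlaps a gene of the GENCODE annotation. Capitals mark the GC box GGGCGG, the letters bound by Sp and KLF factors, searched on both strands, with overlapping matches joined. Srsf9 is chr5:115326927-115327176 on the plus strand, Hnrnpu is chr1:178337816-178338065 on the minus strand, and Hnrnpul1 is chr7:25754760-25755009 on the minus strand.
Srsf9: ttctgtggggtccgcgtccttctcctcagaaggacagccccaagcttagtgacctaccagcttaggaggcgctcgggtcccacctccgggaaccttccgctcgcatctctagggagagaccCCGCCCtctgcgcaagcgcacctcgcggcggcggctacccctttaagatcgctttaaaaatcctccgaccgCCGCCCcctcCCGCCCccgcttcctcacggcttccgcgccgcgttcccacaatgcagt
Hnrnpu: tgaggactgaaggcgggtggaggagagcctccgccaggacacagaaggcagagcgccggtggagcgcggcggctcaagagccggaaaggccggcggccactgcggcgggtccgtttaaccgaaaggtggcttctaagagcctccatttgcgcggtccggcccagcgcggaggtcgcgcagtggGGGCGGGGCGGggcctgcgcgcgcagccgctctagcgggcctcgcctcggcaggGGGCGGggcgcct
Hnrnpul1: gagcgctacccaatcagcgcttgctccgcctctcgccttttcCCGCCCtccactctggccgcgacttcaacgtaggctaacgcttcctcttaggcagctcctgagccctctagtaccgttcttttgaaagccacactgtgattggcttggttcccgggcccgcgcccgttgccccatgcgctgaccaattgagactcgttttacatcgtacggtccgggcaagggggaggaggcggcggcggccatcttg
The Srsf9 and Hnrnpu stretches hold 3 matches each and the Hnrnpul1 stretch 1. Of 45 members with a promoter window in the table (250 bases before and 50 after the start, any start of the gene), 33 (73.3%) held GGGCGG, against 64.1% of 11054 tested genes. The ETS core CCGGAA, searched in the same way, was in 23 of the 45 (51.1%) against 30.2%, the CCAAT box CCAAT in 22 (48.9%) against 42.5%, and the E-box CACGTG, bound by MYC and MAX, in 6 (13.3%) against 11.4%. These are matches of letters and no binding was measured. The m6A mark on mRNA is most often placed in a short consensus, one form of which is GGACT. In the sense strand of the longest annotated protein-coding transcript, 42 of 50 members (84.0%) held GGACT, against 91.8% of 12794 tested genes, and the median density was 0.57 matches per kb against 1.05. No m6A was measured in these libraries.

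The genotype was checked first. Ybx1 lies on chromosome 4 from 119277981 to 119294604 of GRCm38, on the minus strand. Its level was 19.70 and 10.002 in WT replicates 4 and 5 and 7.29 and 8.33 in knockout replicates 1 and 3, and the groups did not overlap. The limma difference was -7.04 (SE 3.49), with an adjusted p of 0.826. It was -2.19 without WT replicate 4 (limma adjusted p = 0.480) and -11.89 without WT replicate 5. As for the cell type, the myeloid genes Mpo and Elane were at 12.30 to 21.09 and 15.84 to 23.52, while the T cell genes Cd3e, Cd3g, Cd4 and Cd8a were listed at 0 in all libraries. The B cell gene Cd79b was at 5.16 to 7.41. The summed linear level of 7 myeloid markers was 24.20 and 16.41 (log2) in WT and 16.95 and 16.97 in knockout libraries. The sum is carried by Elane. Of the 7, Itgam and Csf3r lay lower in knockout, with both values below both WT values. Itgam read 18.20 and 9.31 in WT and then 8.03 and 7.22, and Csf3r read 19.77 and 10.76 and then 10.63 and 10.24. The sum of the progenitor markers Kit and Cd34 was 5.21 and 6.60 in WT and 4.88 and 4.03 in knockout, both genes being lower in both knockout libraries; whether either marker list has a part in the values below was not tested. In bulk samples fewer cells of a type and less RNA per cell cannot be told apart.

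In most of these genes WT replicate 4 lay far from the rest, and this has to be read before any difference between groups. Relative to the median of the other 3 libraries, 16 of 50 members lay over 3 log2 higher in WT replicate 4, 24 lay over 1 log2 lower and 10 lay between, where 11.3% of all tested genes lay as high and 29.3% as low. These limits were chosen after the values were seen. At a level of 8 or more in the other libraries (their median), 22.1% and 57.8% of tested genes lay beyond the same limits, and of the 41 members at that level 15 (36.6%) and 22 (53.7%) did. The 16 high members were 4.78 to 11.18 above the others, with a median of 8.48. Hnrnpul1 was the most displaced, at 19.81 in WT replicate 4 against 9.41, 8.63 and 8.40 in WT replicate 5 and knockout replicates 1 and 3. Srsf7, an SR protein and mRNA export adaptor, was at 20.91 against 12.05, 12.42 and 12.78. Snrpa, which encodes the A protein of the U1 particle, was the most displaced downwards, at 5.83 against 9.72, 9.68 and 9.56.

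**Figure D1:**
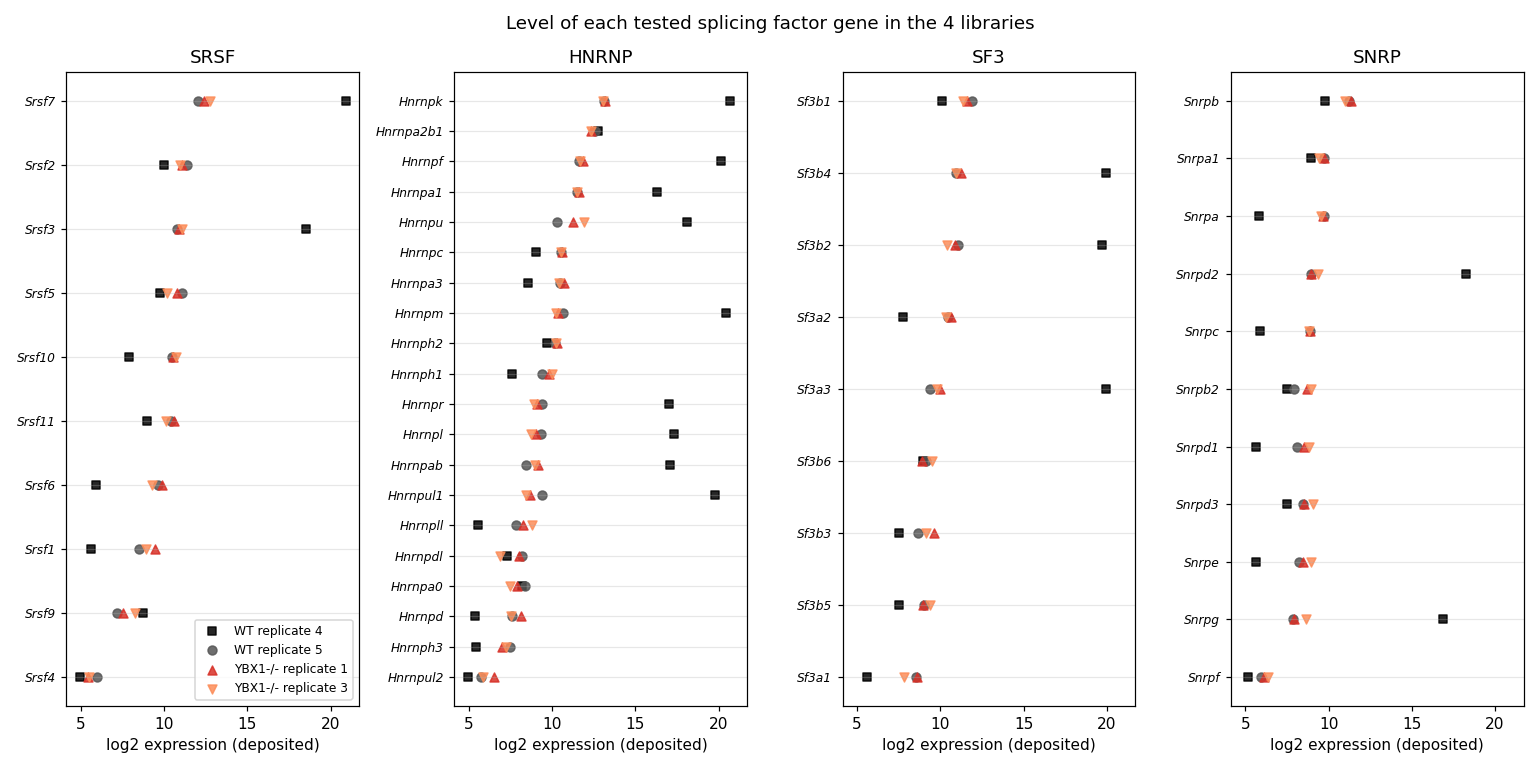
Deposited log2 expression (horizontal axis) of the 50 tested members, 1 row per gene and 1 panel per family, ordered by the median of WT replicate 5 and both knockout libraries; each symbol is 1 library. The span of the other 3 libraries has a median of 0.56 and reaches 1.62 in Hnrnpu, and WT replicate 4 (black squares) lies far to the right in 16 genes and to the left in 24.

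**Figure D2:**
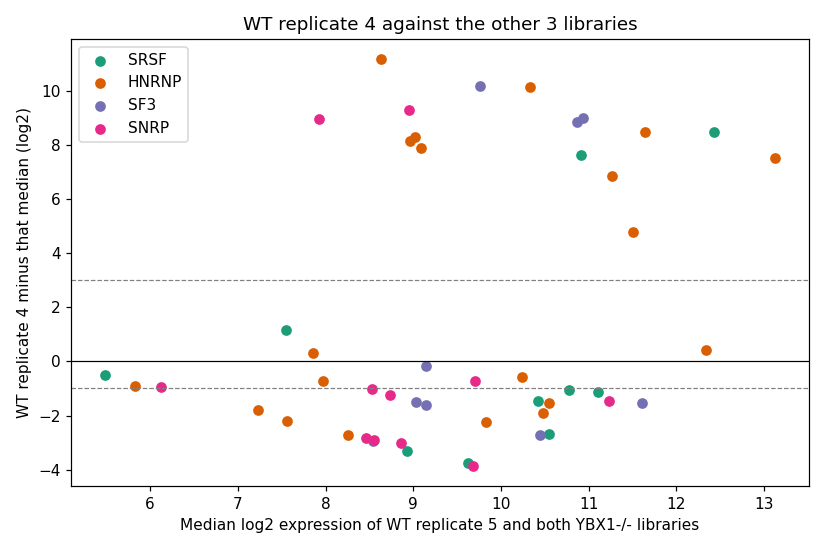
WT replicate 4 minus the median of the other 3 libraries (vertical axis, log2) against that median (horizontal axis, log2) for the 50 tested members; dashed lines mark 3 and -1. Genes of the same level in the other libraries fall on both sides, 16 above the upper line and 24 below the lower one.

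Genes of the same complex lay on both sides. In the Sm ring, whose proteins assemble in equal numbers, Snrpd2 was at 18.24 and Snrpg at 16.89 in WT replicate 4, while Snrpd1 was at 5.66 and Snrpe at 5.63. In WT replicate 5 these 4 genes were at 8.96, 7.85, 8.07 and 8.24. In SF3A, Sf3a3 was at 19.93 in WT replicate 4 and Sf3a1 at 5.58, against 9.38 and 8.54 in WT replicate 5. In SF3B, Sf3b2 and Sf3b4 were at 19.71 and 19.96, and Sf3b3 and Sf3b5 at 7.51 and 7.54. Among SR genes, Srsf3 was at 18.55 and Srsf7 at 20.91, while Srsf1 was at 5.61 and Srsf6 at 5.89.

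The values of WT replicate 4 were not spread evenly but lay in bands. In that library 13 members were at 4.92 to 5.89, 0 at 6 to 7 and 8 at 7.26 to 7.86, and then 13 at 8.18 to 12.76 and 16 at 16.28 to 20.91. The medians of the 13 lowest in the other 3 libraries ran from 5.48 to 9.68. The same bands held over all 17303 tested genes: WT replicate 4 had 3906 genes at 5 to 6, 321 at 6 to 7 and 1464 at 7 to 8. WT replicate 5 had 1271, 1684 and 1868 genes there, knockout replicate 1 had 1238, 1548 and 1900, and knockout replicate 3 had 1294, 1672 and 1777. What makes the bands was not tested, and without counts it cannot be told whether values of this library within a band differ from each other. For this reason differences from WT replicate 5 alone are given below beside those from both WT libraries, or each library's value is.

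**Figure D3:**
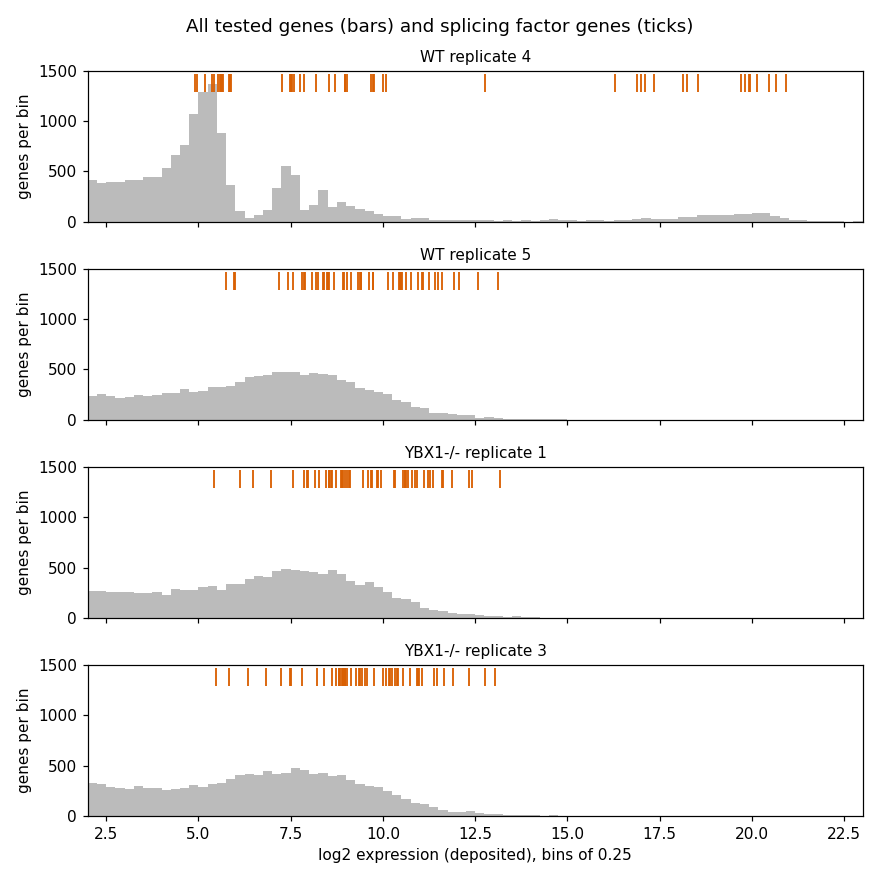
Number of tested genes per bin of 0.25 log2 (bars) and the position of each of the 50 tested members (ticks), by library, from log2 2 to 23 of the deposited values. The 3 lower panels have a single broad hump, and WT replicate 4 has peaks near 5 and 7 with 321 genes at 6 to 7, and a further group near 20.

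Between knockout and WT no splicing factor gene passed the test. Limma called 0 of 50 members and 0 of 17303 tested genes at an adjusted p under 0.05 (0.0% called). At an unadjusted limma p under 0.05 there were 0 members and 651 genes (3.76%), and the adjusted limma p of the members ran from 0.826 to 0.996. The median difference (knockout minus WT) was 0.36 over members and -0.09 over all tested genes, and 0.054 and 0.074 from WT replicate 5 alone. Most members are well expressed, and at a median level of 8 or more in the other libraries the order turned: the median difference was 0.38 over 41 members and 0.70 over 4274 tested genes. Both knockout values lay above both WT values in 13 members (17.3% of all tested genes did so) and below them in 7 (18.8%). At a level of 8 or more it was 11 of 41 members above (30.6% of tested genes at that level) and 6 below (10.5%). Without WT replicate 5 limma called 32 members, 16 higher and 16 lower, and 4960 of all genes. The 16 lower ones are the 16 members that stood over 3 log2 high in WT replicate 4, and the 16 higher ones are among the 24 that stood low there.

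Against WT replicate 5 the members lay on both sides, most of them within 1 log2. Both knockout values lay above it in 21 of 50 members and below it in 16, shares near those of all tested genes, 41.8% and 33.4%. By more than the knockout libraries differed from each other, 14 members lay above (26.3% of all genes) and 12 below (24.4%). The span of the 3 libraries had a median of 0.56 over members and 0.86 over all tested genes, and 0.50 and 0.57 at a median level of at least 8. Without WT replicate 4 limma called 0 members and 0 genes. At an unadjusted p it gave 1 member higher (5.4% of all genes) and 1 lower (4.99%). Knockout replicate 1, which shares its RNA-seq number with WT replicate 5, lay above it in 31 of 50 members with a median of 0.10. Knockout replicate 3 lay above it in 24 with a median of -0.02. Over all 17303 tested genes, knockout replicates 1 and 3 lay above WT replicate 5 in 9977 and 8778, with medians of 0.006 and 0.016.

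**Figure D4:**
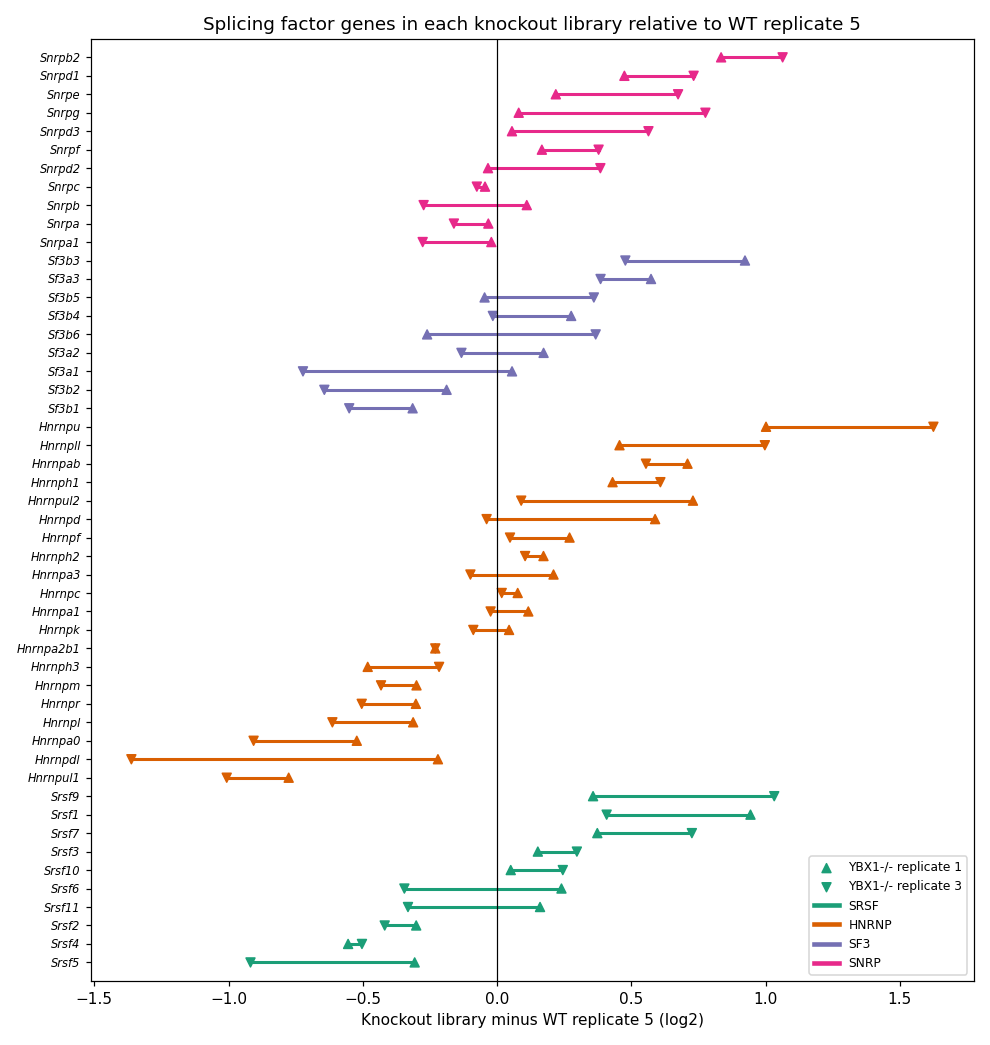
Each tested member's value in knockout replicate 1 (upward triangles) and replicate 3 (downward triangles) minus WT replicate 5 (log2, horizontal axis), joined by a line and coloured by family. In 21 genes both symbols lie to the right of 0 and in 16 to the left, Hnrnpu farthest right.

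Among the SR genes, both knockout values of Srsf1 and Srsf10 exceeded both WT values, which is 2 of the 10 tested against 17.3% of all tested genes, and 0 lay below both (18.8%). Of tested genes at a level of 8 or more, 30.6% lay above both and 10.5% below both. Srsf1, the founding SR protein, which binds exonic enhancers (chromosome 11, 88047373 to 88053755, plus strand), was at 5.61 and 8.52 in WT and 9.46 and 8.93 in knockout libraries. The WT value of 5.61 lies in the lowest band of WT replicate 4. Its limma difference was 2.13 (SE 1.17, adjusted p = 0.826), and from WT replicate 5 alone it was 0.68 (SE 0.35, adjusted p = 0.595), a 1.60-fold higher level. Srsf10, a repressor of splicing when dephosphorylated, was at 7.86 and 10.495 in WT and 10.55 and 10.74 in knockout libraries, so that it stood 0.05 and 0.24 above WT replicate 5. Srsf9, which has a short RS tail, was at 8.71 and 7.19 in WT and 7.55 and 8.23 in knockout libraries. Its groups overlapped, and its difference of -0.06 turned to 0.69 without WT replicate 4 and to 0.28 without knockout replicate 1.

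Against WT replicate 5 alone, 5 SR genes lay above, 3 below and 2 on both sides, where 41.8% of all tested genes lay above and 33.4% below. Srsf3 and Srsf7, which are related in sequence and act as mRNA export adaptors, both lay above it: Srsf3 was at 10.92 and 11.06 in knockout libraries against 10.76. Srsf4 and Srsf5, which like Srsf1 and Srsf9 carry a pair of RNA recognition motifs, lay below it. Srsf4 was at 5.43 and 5.48 against 5.98, and Srsf5 at 10.78 and 10.16 against 11.08. Srsf6, a close relative of Srsf4 and Srsf5, lay between, at 9.87 and 9.28 against 9.63. Srsf2, which binds exonic enhancers, was at 11.10 and 10.98 in knockout libraries against 11.40 in WT replicate 5 and 9.99 in WT replicate 4. Srsf11 was at 10.58 and 10.09 against 10.42. The limma differences without WT replicate 4 ran from -0.61 to 0.69 over the 10 genes, with a smallest unadjusted p of 0.155. These genes beyond Srsf1, Srsf9 and Srsf10 were singled out after their values were seen.

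The HNRNP genes held the widest differences from WT replicate 5 in each direction. Hnrnpu, which encodes the scaffold attachment factor that binds chromatin-associated RNA (chromosome 1, 178321108 to 178337797, minus strand), was at 18.12 and 10.27 in WT and 11.27 and 11.89 in knockout libraries. Both knockout values lay above WT replicate 5 and below WT replicate 4, so the groups overlapped. The limma difference was -2.61 (SE 3.63, adjusted p = 0.859) over all libraries, and without WT replicate 4 it was 1.31 (SE 0.39, adjusted p = 0.487), a 2.49-fold higher level. Hnrnpul1, a relative of Hnrnpu (chromosome 7, 25721165 to 25754757, minus strand), was at 19.81 and 9.41 in WT and 8.63 and 8.40 in knockout libraries, below both. Its limma difference was -6.09 (SE 3.73, adjusted p = 0.826), and -0.89 without WT replicate 4 (SE 0.23, unadjusted p = 0.0456, adjusted p = 0.477), a 1.86-fold lower level. Hnrnpul2, the other relative, was at 4.92 and 5.74 in WT and 6.47 and 5.83 in knockout libraries. The 3 relatives thus lay on different sides of WT replicate 5, a difference between genes that was not tested.

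Hnrnpl and Hnrnpll, paralogs that bind CA-rich RNA, also lay on opposite sides. Hnrnpl was at 17.34 and 9.34 in WT and 9.02 and 8.72 in knockout libraries, and its limma difference was -4.47 (SE 2.93, adjusted p = 0.826). Hnrnpll, known for controlling the splicing of Ptprc in lymphocytes, was at 5.53 and 7.80 in WT and 8.26 and 8.80 in knockout libraries, with a limma difference of 1.86 (SE 0.99, adjusted p = 0.826). Its unadjusted limma p of 0.124 was the smallest of the 50 members over all libraries. The WT value of 5.53 lies in the lowest band of WT replicate 4. From WT replicate 5 alone the differences were -0.46 and 0.73, with adjusted p-values of 0.605 and 0.585.

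The G-run binding genes Hnrnph1 and Hnrnph2 lay above both WT libraries. Hnrnph1 was at 7.60 and 9.40 in WT and 9.83 and 10.0045 in knockout libraries, and Hnrnph2 at 9.67 and 10.14 against 10.31 and 10.24. Their differences were 1.42 and 0.38 over all libraries and 0.52 and 0.14 from WT replicate 5. Because these paralogs are nearly identical in sequence, reads may be shared between them, and how the authors counted such reads is not given. Hnrnpf, of the same family, was at 20.13 and 11.60 in WT and 11.87 and 11.65 in knockout libraries, and Hnrnph3 at 5.41 and 7.44 against 6.96 and 7.22. For Hnrnpf the limma difference of -4.11 turned to 0.16 without WT replicate 4.

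Of the abundant A and B type proteins that coat nascent transcripts, Hnrnpa0 lay lower in both knockout libraries, at 7.86 and 7.48 against 8.18 and 8.38 in WT. Here WT replicate 4 lay near WT replicate 5, and the difference was -0.61 (limma SE 0.67, adjusted p = 0.829) over all libraries and -0.71 (limma SE 0.31, adjusted p = 0.549) without WT replicate 4. Hnrnpa2b1, a proposed reader of m6A, was at 12.76 and 12.57 in WT and at 12.34 in both knockout libraries, 0.23 below WT replicate 5. Hnrnpa1 was at 16.28 and 11.50 in WT and 11.62 and 11.48 in knockout libraries, and it has processed pseudogenes that can share its reads. Hnrnpab was at 17.09 and 8.40 in WT and 9.11 and 8.96 in knockout libraries, so that its difference of -3.71 turned to 0.63 without WT replicate 4. Hnrnpa3 was at 8.55 and 10.47 against 10.68 and 10.37.

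Several HNRNP genes were nearly level in the 3 libraries other than WT replicate 4. Hnrnpk, which binds C-rich RNA, was at 13.13 in WT replicate 5 and 13.17 and 13.04 in knockout libraries, and Hnrnpc, which binds uridine tracts, at 10.53 against 10.60 and 10.54. Hnrnpm and Hnrnpr had knockout values under both WT values, Hnrnpm at 10.33 and 10.20 against 20.47 and 10.63 and Hnrnpr at 9.09 and 8.89 against 16.99 and 9.39. Hnrnpd, also called AUF1, an mRNA decay factor of AU-rich elements, was at 5.36 and 7.56 in WT and 8.15 and 7.52 in knockout libraries. Its paralog Hnrnpdl was at 7.26 and 8.19 against 7.97 and 6.83, so the knockout libraries lay on both sides of WT replicate 4 and below WT replicate 5. In all, 8 HNRNP genes lay above WT replicate 5 in both knockout libraries, 8 below and 4 between. Over all tested genes 41.8% lay above and 33.4% below.

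In the SF3 complexes, 1 of 9 genes lay above both WT libraries and 1 below, where 17.3% and 18.8% of all tested genes did. Sf3b3, a scaffold subunit of SF3B (chromosome 8, 110810239 to 110846787, minus strand), was at 7.51 and 8.66 in WT and 9.58 and 9.14 in knockout libraries. The WT value of 7.51 lies in the band of WT replicate 4 at 7.26 to 7.86. The limma difference of Sf3b3 was 1.27 (SE 0.82, adjusted p = 0.826). From WT replicate 5 alone it was 0.70 (limma SE 0.31, adjusted p = 0.555). Sf3b2 was at 19.71 and 11.05 in WT and 10.87 and 10.41 in knockout libraries, with a difference of -4.74 over all libraries and -0.42 from WT replicate 5. Sf3a3 was at 19.93 and 9.38 in WT and 9.95 and 9.76 in knockout libraries, so its difference of -4.80 turned to 0.48 without WT replicate 4. Sf3b1, the branch-point subunit mutated in myeloid neoplasms, was at 10.07 and 11.92 in WT and 11.61 and 11.37 in knockout libraries, above the one WT library and below the other. Sf3a1, Sf3a2, Sf3b4, Sf3b5 and Sf3b6 had WT replicate 5 between the knockout values.

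Of the SNRP genes, 5 of 11 lay above both WT libraries and 0 below. All tested genes did so in 17.3% and 18.8%, and those at a level of 8 or more in 30.6% and 10.5%. Snrpb2, the U2B″ protein of the U2 particle (chromosome 2, 143063039 to 143072853, plus strand), was at 7.48 and 7.90 in WT and 8.73 and 8.96 in knockout libraries. The WT value of 7.48 lies in the band of WT replicate 4 at 7.26 to 7.86, so the spread of the WT pair is uncertain. The lowest knockout value stood 0.83 over the highest WT value, more than the deposited values of either group differed from each other. Its limma difference was 1.16 (SE 0.69, adjusted p = 0.826), and without WT replicate 4 it was 0.95 (SE 0.24, unadjusted p = 0.0420, adjusted p = 0.477), a 1.93-fold higher level. Its partner of the same particle, Snrpa1, did not share this: it was at 8.96 and 9.72 in WT and 9.70 and 9.44 in knockout libraries. The U1 genes Snrpa and Snrpc had differences from WT replicate 5 of -0.097 and -0.060, Snrpc at 8.86 and 8.83 against 8.91.

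In 5 of the 7 Sm ring genes WT replicate 5 lay under both knockout libraries, in 0 it lay over both, and 4 of the genes lay above both WT libraries. In those 4 genes the WT replicate 4 value lies in its bands at 4.92 to 5.89 or 7.26 to 7.86. Within a band it cannot be told whether values differ. WT replicate 5 lay under both knockout libraries in 41.8% of all tested genes and in 41.7% at a level of 8 or more, and both WT libraries did in 17.3% and 30.6%. Snrpd1 was at 5.66 and 8.07 in WT and 8.55 and 8.81 in knockout libraries, and Snrpe at 5.63 and 8.24 against 8.46 and 8.92. The limma differences were 1.81 (SE 1.02) and 1.75 (SE 1.08), both with an adjusted p of 0.826, and 0.60 and 0.45 from WT replicate 5. Snrpf was at 5.18 and 5.96 in WT and 6.12 and 6.33 in knockout libraries, and Snrpd3 at 7.52 and 8.47 against 8.53 and 9.04. Snrpg was at 16.89 and 7.85 in WT and 7.93 and 8.62 in knockout libraries, and its difference of -4.09 turned to 0.43 without WT replicate 4. Snrpd2, at 8.92 and 9.34 against 8.96, and Snrpb, at 11.35 and 10.96 against 11.24, lay on both sides of WT replicate 5. The median difference of the ring was 0.66 over all libraries and 0.31 from WT replicate 5, against -0.09 and 0.07 over all tested genes, and 0.70 and 0.05 over those at a level of 8 or more. No test of the ring as a group was made, and its members were known when it was chosen.

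Whether the deposited values are already scaled by gene length is not described, and the comparison below assumes that they are not. Levels between genes were compared per length, as the log2 value minus the log2 of the exon length in kb, in WT replicate 5 and the knockout libraries. By the median of these 3 libraries Srsf7 came first at 10.60 (10.22 to 10.95), followed by Hnrnpk at 10.43 (10.34 to 10.48), Snrpb at 10.25 (9.98 to 10.36) and Hnrnpf at 10.04 (9.99 to 10.26). The ranges of these neighbours overlap, so their order is not resolved. It also depends on the length used, since the exon length joins the exons of all annotated transcripts. That length was 6.47 kb for Hnrnpk and 3.55 kb for Srsf7, where the longest coding transcripts have 2970 and 2403 bases. For Hnrnpa2b1, at 9.62 on this scale, it was 6.58 kb against 1728 bases. A ranking by transcript length was not made. Hnrnpul2 was lowest at 3.001 (2.91 to 3.64), next to Srsf4 at 3.65 (3.60 to 4.15), and these ranges overlap too. The 7 Sm ring genes, whose proteins are used in equal numbers, ran from 6.34 for Snrpf to 10.25 for Snrpb on this scale of level per kb.

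The authors' deposited table gives its own fold changes, whose header names WT against cKO. For Ybx1 the value is -9.50 with lower knockout levels, and over 17185 tested genes the sign is opposite to knockout minus WT of the sample columns in 15.7%, so the fold changes are read as knockout over WT. The authors' deposited table called 7 of 50 members lower at an adjusted p under 0.05, where 3.94% of all tested genes were, and 0 higher (0.156%). Hnrnpab, Hnrnpf, Hnrnpk, Hnrnpl, Hnrnpu, Snrpg and Snrpf are the 7. At a median level of 8 or more in the libraries other than WT replicate 4, it called 5 of 41 members and 360 of 4274 tested genes lower. In the authors' deposited table Snrpg has a log2 fold change of -7.59 (adjusted p = 0.00197), Hnrnpab -7.34 (adjusted p = 0.00277), Hnrnpl -7.32 (adjusted p = 0.00322) and Hnrnpf -7.19 (adjusted p = 0.00382). It gives Hnrnpk -6.49 (adjusted p = 0.00624 in the authors' deposited table) and Hnrnpu -5.57 (adjusted p = 0.0399). The first 6 of the 7 are among the 16 members that stood high in WT replicate 4. Of these 6, Hnrnpab, Hnrnpf, Hnrnpu and Snrpg lay above WT replicate 5 in both knockout libraries. Snrpf has a deposited log2 fold change of -5.54 (adjusted p = 0.00481 in the authors' deposited table), but both of its knockout levels exceeded both of its WT levels.

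In 12 of 50 members (24.0%) the authors' deposited table has a log2 fold change below -2 while the mean of the knockout libraries was above that of WT, against 4.48% of 17185 tested genes. At a level of 8 or more this held in 11 of 41 members (26.8%) and in 12.7% of tested genes. The 12 are Hnrnpa3, Sf3b1, Sf3b6, Snrpa1, Snrpb, Snrpc, Snrpd1, Snrpd3, Snrpf, Srsf2, Srsf5 and Srsf10. In the authors' deposited table Sf3b1 is at -4.96, Snrpa1 at -5.08 and Snrpc at -4.89, while their sample columns gave knockout minus WT of 0.49, 0.23 and 1.47. Against WT replicate 5 alone these 3 turn to -0.43, -0.15 and -0.060, and of the 12 genes 6 have a knockout mean below WT replicate 5, while 4 (Snrpd1, Snrpd3, Snrpf and Srsf10) lie above both WT libraries. A second feature is that 10 members have a p-value of exactly 1 in the authors' deposited table, as 9.63% of tested genes have. All 10 have a log2 fold change below -5 there, as have 1107 of the 1667 tested genes with that p. At a level of 8 or more, 10 of 41 members and 846 of 4274 tested genes have that p, and 727 of those 846 genes lie below -5. Hnrnpul1 is listed at -10.18, Hnrnpm at -9.06 and Sf3a3 at -8.92 with that p in the authors' deposited table. Of the 16 members high in WT replicate 4, 9 have a p of 1 and 6 are called. Why the fold changes and p-values depart from the levels was not tested.

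**Figure D5:**
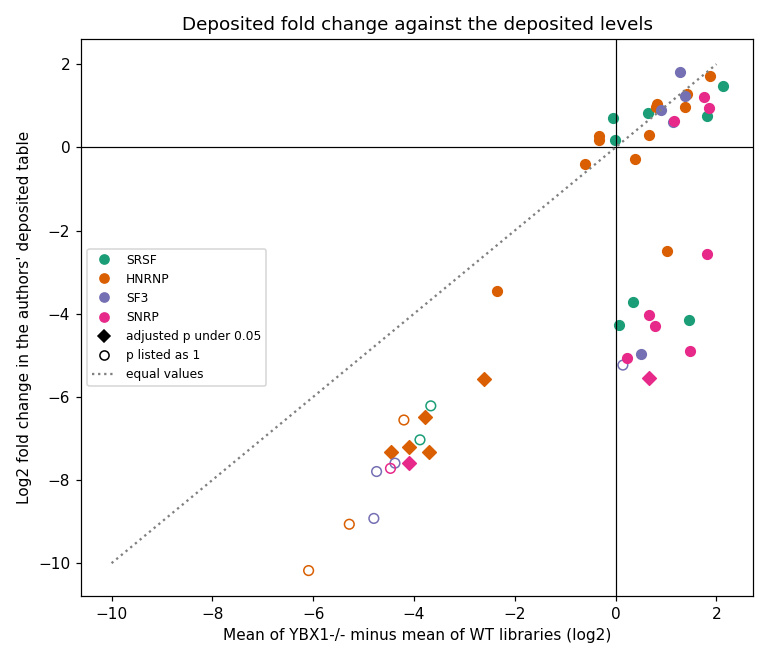
Log2 fold change in the authors' deposited table (vertical axis) against the knockout mean minus the WT mean of the deposited levels (horizontal axis, log2) for 50 members, coloured by family; diamonds have a deposited adjusted p under 0.05, open circles a deposited p of 1, and the dotted line marks equal values. The 12 genes at the lower right have a deposited fold change below -2 and a higher mean level in knockout.

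A further 83 genes of the splicing machinery were chosen with earlier results of these data known. Limma called 0 of the 83 with all libraries and 0 without WT replicate 4, and at an unadjusted p under 0.05 it gave 0 and, without WT replicate 4, 7 higher (5.4% of all genes) and 2 lower (4.99%). Both knockout values lay above both WT values in 31 (17.3% of all tested genes, 30.6% at a level of 8 or more) and below in 12 (18.8% and 10.5%), and the median difference was 0.66 over all libraries and 0.09 from WT replicate 5. WT replicate 4 was over 1 log2 below the other libraries in 44 of the 83 and over 3 above in 17. Dhx15, the helicase that takes spliceosomes apart, was at 5.83 and 8.92 in WT and 10.28 and 9.83 in knockout libraries. Khdrbs1, which encodes the splicing regulator SAM68, was at 5.54 and 7.44 against 8.85 and 8.58. In both genes the WT replicate 4 value lies in that library's band at 5 to 6. Their differences were 2.68 and 2.22 over all libraries and 1.13 and 1.27 from WT replicate 5, with limma adjusted p-values of 0.480 and 0.474 without WT replicate 4. On the lower side Clk1, a kinase that phosphorylates SR proteins, was at 16.57 and 9.83 in WT and 8.62 and 8.92 in knockout libraries. Gemin4, of the SMN complex that loads Sm rings onto snRNA, was at 3.51 and 3.62 against 2.42 and 1.95. Their differences were -4.43 and -1.38 over all libraries and -1.06 and -1.43 from WT replicate 5, with limma adjusted p-values of 0.477 and 0.554 without WT replicate 4.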

How the data were processed

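Polyadenylated RNA of leukemia cells was sequenced in 4 libraries, 2 per genotype. The submitters' processing notes name the build GRCm38, the aligner HISAT2 2.1.0 and also featureCounts, DESeq2 and CASAVA, without role or order. The authors deposited log2 expression values per gene and library, with a normalization that the sources used here do not describe, and with a log2 fold change, p-value and adjusted p-value per gene, per the file headers. Without counts, depth is unknown and no interval that needs it was computed.

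Genes with a log2 value of at least 0 in 2 or more libraries, not 0 in all, were tested (17303 of 55339 rows) with limma 3.58.1 and a mean-variance trend in R 4.3.3, on the values as deposited. The Benjamini-Hochberg adjustment ran over all tested genes, with 0.05 as the threshold. Differences are knockout minus WT. A fit without WT replicate 4 takes the spread from the knockout pair and assumes that the single WT library varies like it. The limma step was tested on simulated data with a common spread for all libraries. These data held no library that stands apart as WT replicate 4 does, so they do not cover that case. Exon lengths are the union of exons of GENCODE vM21 (GRCm38, all 51 members matched by symbol), and promoters are RefSeq windows, found for 45 members. Antisense and overlapping genes cannot be told apart without strand, which is not stated for the counting.

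Named genes are, per family, up to 3 members with the widest gap between groups in each direction, up to 3 called in the deposited table with the largest fold change, and the 2 farthest from WT replicate 5. Other members are named to account for the families, after their values were seen. The members and lists were chosen with earlier results of these data known. Alternatives left out each library, changed the filter, added a pseudocount of 1 or 0.5, rescaled the libraries or dropped the trend.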

Additional observations from a re-analysis of the deposited data

How the results depend on the processing

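Over all tested genes limma called 0 to 4960 genes when each library was left out in turn: 4960 without WT replicate 5 and 0 without WT replicate 4, with 26 when knockout replicate 1 was left out and 88 when knockout replicate 3 was. Over the members the calls ran from 0 to 32, and over the 83 other splicing genes from 0 to 52, the highest count without WT replicate 5 in both. The median difference over members ran from 0.054 (without WT replicate 4) to 0.89 (without WT replicate 5), against 0.36 with all libraries. Under no filter, a filter of log2 5, pseudocounts of 1 and 0.5, quantile normalization, centring and no trend, the calls over all genes, members and other splicing genes stayed at 0. Of 25 named genes, Ybx1 included, 2 changed sign under quantile normalization, to 0.22 for Hnrnpf and 1.62 for Hnrnpu, as they did without WT replicate 4. Leaving out WT replicate 4 turned 6 and leaving out knockout replicate 1 turned 1. Over the fits that left out a library, the differences ran from -0.82 to 0.69 for Srsf9 (0.28 without knockout replicate 1), from -8.06 to 0.63 for Hnrnpab and from -8.37 to 0.16 for Hnrnpf. They ran from -6.54 to 1.31 for Hnrnpu, from -10.07 to 0.48 for Sf3a3 and from -8.61 to 0.43 for Snrpg, the lowest without WT replicate 5 and the highest without WT replicate 4 in all 6 genes, and the cause was not tested. The median difference of all tested genes, -0.093, moved to 0.16 under quantile normalization, -0.23 under centring and 0.60 under the filter of log2 5, while that of the members was 0.52, 0.23 and 0.36. No paired analysis was possible because the groups share no replicate number. With 2 libraries per group, 1 of which stands apart, and unknown depth, small differences could not be resolved.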

Other observations

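The letters GGACT were present in the longest coding transcript of 17 of the 21 members whose knockout values both lay above WT replicate 5, of 13 of 13 that lay on both sides of it and of 12 of the 16 that lay below it. Their median density was 0.55, 0.73 and 0.48 matches per kb. The 8 members without a match are Srsf5, the HNRNP genes Hnrnpa2b1 and Hnrnpab, and 5 SNRP genes: Snrpa and Snrpc of the U1 particle and Snrpd1, Snrpe and Snrpg of the Sm ring. The transcripts of the 5 SNRP genes are short, from 669 bases (Snrpe) to 1365 (Snrpa), and presence was not adjusted for length. Of the 8 members, Snrpd1, Snrpe, Snrpg and Hnrnpab lay above WT replicate 5 in both knockout libraries, and Srsf5, Hnrnpa2b1, Snrpa and Snrpc lay below it in both.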
